A study of Bos taurus with 12 samples.

Results

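Mitochondrial complex I, NADH:ubiquinone oxidoreductase, is built from subunits of the nuclear and the mitochondrial genome, and the nuclear genes for it are described here in bovine oocytes at metaphase of the second meiotic division (MII) and at the germinal vesicle (GV) stage, the prophase arrest that precedes maturation. The genes were the protein-coding entries of the expression table, outside the mitochondrial chromosome, with symbols starting NDUFA, NDUFB, NDUFC, NDUFS or NDUFV. These were 47 of the 16675 genes in the table, namely 39 subunit symbols and 8 NDUFAF assembly factors, which help to build the complex but are not part of it. Of the 39, NDUFA4 and NDUFA4L2 are no longer counted as complex I subunits, which leaves 37.

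MII and GV oocytes had been cultured in vitro, per the series' design text, and the labels name no treatment, strain or age. There were 12 libraries, and for each stage 3 of them were input, made from poly(A) RNA, and 3 were of RNA captured by an antibody to N6-methyladenosine (m6A). The question the design posed was how transcript levels and m6A differ between the stages. Input levels were given per library as FPKM, a fragment count per transcript length and library size, so a level relative to the whole library. m6A was given as 1 peak list per stage and 1 table of peaks that differ. The labels do not tie the libraries to separate animals or cultures, so the spread behind each p-value is that between these libraries and may be technical.

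Complex I takes electrons from NADH to ubiquinone and pumps protons across the inner mitochondrial membrane. Its peripheral arm reaches into the matrix and holds the NADH-binding N module and the ubiquinone-binding Q module. The catalytic core carries the flavin and the iron-sulfur clusters, while the membrane arm is built around the subunits of the mitochondrial genome and is enclosed by accessory subunits. Oocytes pass their mitochondria on to the embryo, and early oocytes of human and Xenopus have been reported to hold little assembled complex I.

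Most nuclear subunit genes had a higher input level in MII than in GV oocytes. Among the 38 subunit genes whose mean over the 6 input libraries reached 1 FPKM, 33 rose in MII and 2 fell (limma on log2(FPKM + 1), Benjamini-Hochberg adjusted p under 0.05), and NDUFV2, NDUFC2 and NDUFB5 did not pass. Over all 11739 genes tested, 60.8% passed in either direction, 32.0% being higher and 28.8% lower in MII. The median log2 change of the 38 genes was 0.68, with quartiles of 0.46 and 1.17, against a median of 0.013 over all genes tested. A rise of at least 1 on the log2 scale was called for 12 of the 38 subunit genes, and for 8.90% of all genes. In 33 genes every MII library lay above every GV library, which holds for 34.9% of all genes, and in 2 every MII library lay below, which holds for 32.3%. NDUFA4L2, a relative of NDUFA4, was at 0.434, 0.329 and 1.33 FPKM in MII and at 1.11, 0.500 and 0.502 FPKM in GV, and was too low to be tested.

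**Figure D1:**
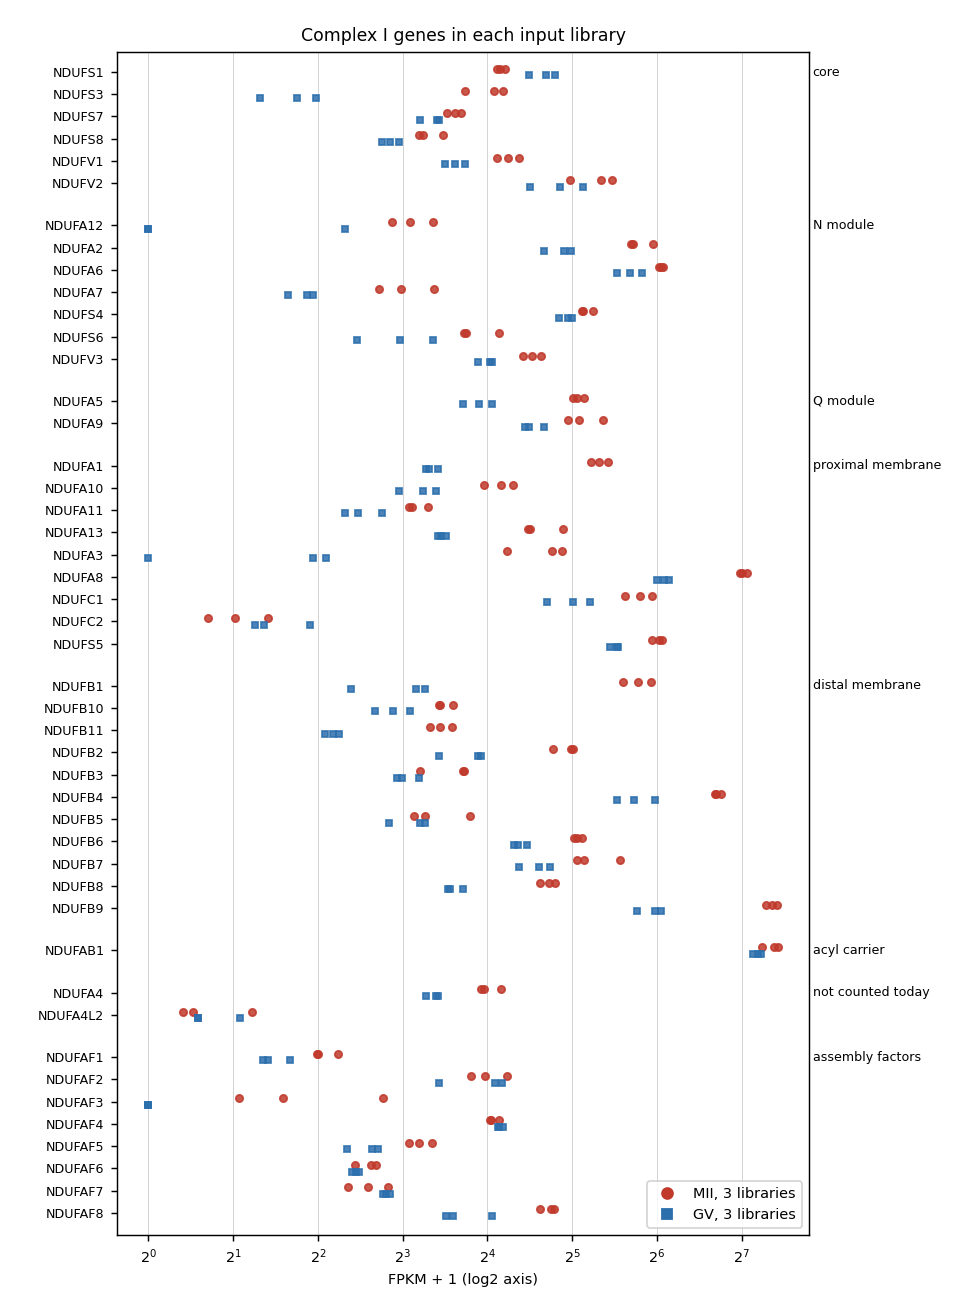
Level of the complex I genes in the 3 MII (red circles) and 3 GV (blue squares) input libraries, as FPKM + 1 on a log2 axis, grouped by role. MII points lie to the right of GV points for most subunits, while NDUFS1 at the top shows the opposite order and NDUFAF3 is listed at 0 in all GV libraries.

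Library profiles were closer within a stage than between stages. Spearman correlations over genes were 0.974 to 0.976 within MII, 0.988 within GV and 0.923 to 0.927 between stages. Between 1282 and 1727 genes were listed at 0 in MII libraries and between 3722 and 3765 in GV libraries. All 12 oocyte markers were in the table, 9 of them higher and 1 lower in MII, and their summed level was 3087 to 3359 FPKM in MII libraries and 1960 to 2010 FPKM in GV libraries. Of 18 cumulus and granulosa cell markers, 14 were in the table and 7 were tested. Of these 1 was higher and 5 were lower in MII. The summed level was 45.9 to 48.6 FPKM in MII and 76.4 to 82.7 FPKM in GV. FSHR was at 0 in all MII libraries and at 0.140 FPKM or below in GV. Other markers were more abundant, with means for HAS2 of 21.5 FPKM in MII and 34.3 FPKM in GV. VIM had 0.429 FPKM in MII and 6.31 FPKM in GV. GREM1, the marker that was higher in MII, had 5.73 FPKM in MII and 2.39 FPKM in GV. Of 5 blood and immune cell markers 3 were in the table, with sums of 31.9 to 33.2 FPKM in MII and 26.4 to 28.3 FPKM in GV. The part of follicle cell RNA in the results below was not tested, and in bulk samples fewer cells of a type and less RNA per cell cannot be told apart. Levels are those of RNA that oligo(dT) beads bound, and tail length was not measured.

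In the catalytic core 4 of 7 nuclear members rose in MII, with a median log2 change of 0.43, and NDUFS1 fell. NDUFS3, the core subunit on which the Q module is assembled, was at 17.2, 15.9 and 12.4 FPKM in MII and at 2.92, 2.37 and 1.50 FPKM in GV. All MII libraries were far above all GV libraries, and the ratio of means was 6.71, with a log2 change of 2.32 (SE 0.19, limma adjusted p = 4.73e-05). NDUFS1, the large iron-sulfur subunit that passes electrons from the N to the Q module, was at 16.4, 16.7 and 17.4 FPKM in MII and at 21.5, 26.9 and 24.9 FPKM in GV. Here every MII library was below every GV library, and NDUFS1 fell by 0.51 (SE 0.086, limma adjusted p = 0.00159).

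NDUFV1, which binds NADH and the flavin, was at 17.9, 19.8 and 16.3 FPKM in MII, against 11.3, 12.3 and 10.3 FPKM in GV. The stages were apart in every library, and NDUFV1 rose by 0.63 (SE 0.096, limma adjusted p = 0.000958). NDUFS8, an iron-sulfur subunit of the Q module, was at 8.16, 10.1 and 8.47 FPKM in MII and at 6.78, 5.77 and 6.18 FPKM in GV, a rise of 0.45 (limma adjusted p = 0.00864). NDUFS7, which holds the last iron-sulfur cluster before ubiquinone, was at 11.9, 10.5 and 11.3 FPKM in MII and at 9.58, 9.81 and 8.25 FPKM in GV. The MII libraries of NDUFS7 were all the higher ones, by 0.26 on the log2 scale (SE 0.093, limma adjusted p = 0.0428), a call that ended without GV library 1 or 3, without MII library 1 or 3, and under each other scaling (0.0403 to 0.135 over all alternatives). NDUFV2, the small iron-sulfur subunit of the N module, was at 39.5, 43.2 and 30.4 FPKM in MII and at 21.6, 33.8 and 27.9 FPKM in GV. MII library 3 was below GV library 2, and the log2 difference of 0.43 had an adjusted p of 0.0639 in limma, passing at 0.0239 without GV library 2 and at 0.0285 without MII library 3, while the difference was 0.27 without GV library 1.

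**Figure D2:**
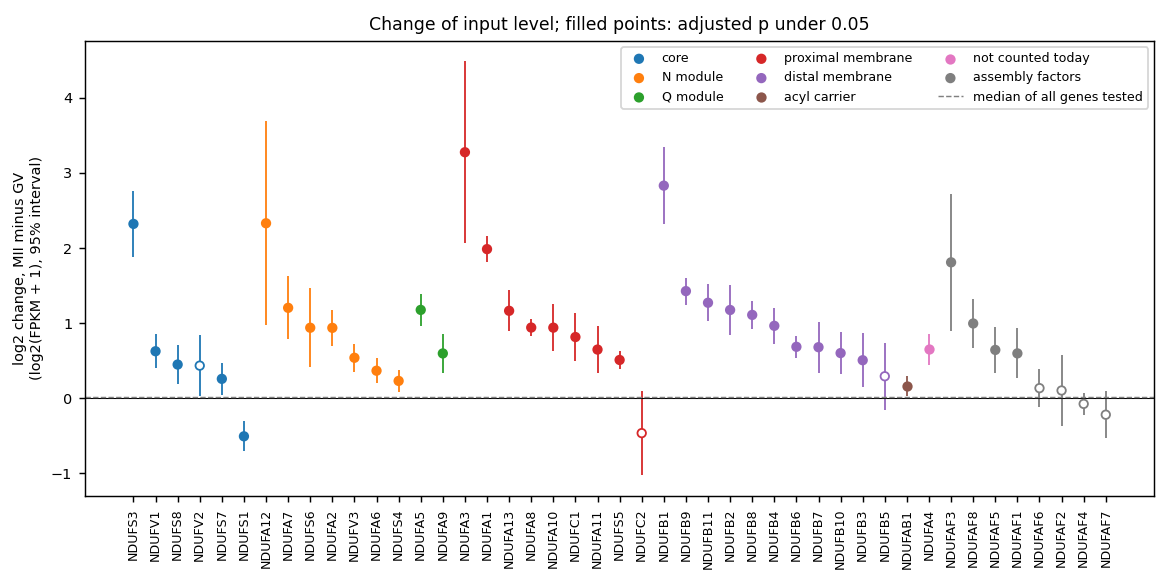
Fitted log2 change of input level, MII minus GV, on the log2(FPKM + 1) scale with its 95% interval for the complex I genes tested, by role. Filled points passed an adjusted p of 0.05 in limma, open points did not, and the dashed line is the median of all genes tested, 0.013.

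All 7 accessory subunits of the N module rose, with a median log2 change of 0.94. NDUFA12, which sits where the N and Q modules join, was at 7.51, 6.31 and 9.23 FPKM in MII, against 0, 4.00 and 0 FPKM in GV. GV library 2 was the only GV library above 0, and it was below all MII libraries. The log2 change of NDUFA12 was 2.33 (SE 0.58, limma adjusted p = 0.0101) and rests on the pseudocount, since it was 4.48 with 0.1 FPKM added instead of 1. NDUFA7 was at 9.36, 5.59 and 6.89 FPKM in MII and at 2.13, 2.85 and 2.65 FPKM in GV, a rise of 1.20 with no overlap (limma adjusted p = 0.000827). NDUFS6, a zinc-binding subunit added late in assembly, was at 12.2, 16.5 and 12.4 FPKM in MII and at 9.24, 4.49 and 6.83 FPKM in GV. Its GV libraries were spread over a wide range below the MII libraries, and it rose by 0.94 (SE 0.22, limma adjusted p = 0.00823). NDUFV3, a small subunit next to the NADH site, was at 23.8, 22.1 and 20.5 FPKM in MII and at 13.8, 15.3 and 15.6 FPKM in GV, without overlap, and rose by 0.54. The others, NDUFA2, NDUFA6 and NDUFS4, rose by 0.94, 0.37 and 0.23, of which NDUFS4 did not pass after scaling to the median (adjusted p = 0.0633) or without mitochondrial genes (log2 change 0.15, adjusted p = 0.107, the highest of its alternatives from 0.0129).

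Both accessory subunits of the Q module rose. NDUFA5, a small helical subunit on the matrix side, was at 34.3, 32.4 and 31.1 FPKM in MII and at 12.1, 13.9 and 15.7 FPKM in GV. The libraries of each stage lay close together and the stages far apart, and the rise of NDUFA5 was 1.18 (SE 0.093, limma adjusted p = 4.16e-05). NDUFA9, a dehydrogenase-like protein near the ubiquinone site, rose by 0.60 (limma adjusted p = 0.00272), with 34.3 ± 5.37 FPKM in MII and 22.2 ± 1.92 FPKM in GV (SD, n = 3 each).

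In the proximal membrane arm, 8 of 9 genes rose, with a median log2 change of 0.94. NDUFA3 had the largest log2 change of all subunit genes, at 28.3, 26.0 and 17.8 FPKM in MII against 0, 2.83 and 3.27 FPKM in GV. The lowest MII library was above the highest GV library, while GV library 1 was listed at 0. The log2 change of NDUFA3 was 3.28 (SE 0.52, limma adjusted p = 0.00112), and without GV library 1 it was 2.60, below the 2.94 of NDUFB1. NDUFA1, needed to anchor the membrane arm and encoded on the X chromosome (4220533 to 4223698), was at 36.5, 41.8 and 39.0 FPKM in MII and at 8.94, 8.71 and 9.66 FPKM in GV. The spread within each stage was small beside the distance between them, and NDUFA1 rose by 1.99 (SE 0.073, limma adjusted p = 1.61e-06), the smallest adjusted p among the subunit genes. NDUFA8, which faces the intermembrane space, was at 128, 132 and 126 FPKM in MII and at 69.4, 67.1 and 63.0 FPKM in GV. All MII libraries were the higher ones, and NDUFA8 rose by 0.94 (SE 0.048, limma adjusted p = 6.7e-06).

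NDUFS5, another intermembrane space protein, was at 60.7, 64.4 and 65.8 FPKM in MII and at 42.5, 45.4 and 45.1 FPKM in GV, and rose by 0.51 without overlap. NDUFA10, a kinase-like protein of the matrix side, was at 18.7, 14.5 and 16.8 FPKM in MII and at 9.51, 8.44 and 6.79 FPKM in GV, and rose by 0.94. Rises of NDUFA13, NDUFC1 and NDUFA11 were 1.16, 0.82 and 0.65. NDUFC2 was the lowest of the tested subunit genes in MII and did not pass. It was at 0.633, 1.03 and 1.65 FPKM in MII and at 1.39, 2.76 and 1.57 FPKM in GV, with overlap, and its log2 difference of -0.46 had an adjusted p of 0.131 in limma (0.0426 to 0.373 over alternatives, passing at -0.78 under quantile normalization).

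In the distal membrane arm, 10 of 11 genes rose, with a median log2 change of 0.97, and NDUFB5 did not pass (0.29, limma adjusted p = 0.217, and 0.0949 without MII library 1 or 0.16 without GV library 3). NDUFB1, on chromosome 21 (56801789 to 56808775), was at 53.8, 47.5 and 59.9 FPKM in MII, against 7.94, 4.22 and 8.61 FPKM in GV. Each MII library was far above each GV library, and the ratio of means was 7.76, with a log2 change of 2.83 (SE 0.22, limma adjusted p = 3.86e-05). NDUFB9, which docks an acyl carrier protein at the tip of the arm, was at 163, 155 and 170.0 FPKM in MII and at 53.2, 65.4 and 61.8 FPKM in GV. It had the highest mean of all subunit genes in MII, and it rose by 1.43 (SE 0.077, limma adjusted p = 8.81e-06). NDUFB11, a membrane subunit encoded on the X chromosome, was at 8.97, 10.9 and 9.86 FPKM in MII and at 3.53, 3.77 and 3.25 FPKM in GV. The stages were apart in all libraries, with a rise of 1.27 (limma adjusted p = 5.36e-05). NDUFB2 was at 26.3, 30.7 and 31.3 FPKM in MII and at 14.2, 13.8 and 9.76 FPKM in GV, and rose by 1.18 without overlap. NDUFB6 was at 31.4, 33.7 and 32.4 FPKM in MII and at 19.0, 19.5 and 21.1 FPKM in GV, and rose by 0.69. Among the others NDUFB8, NDUFB4, NDUFB7 and NDUFB10 rose by 1.11, 0.97, 0.68 and 0.60, and NDUFB3 by 0.51, a call that ended without GV library 1 or 3 or MII library 1 or 3 (adjusted p = 0.00298 to 0.0846 over alternatives).

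NDUFAB1, the mitochondrial acyl carrier protein, also serves fatty acid and iron-sulfur cluster synthesis. It was at 149.7, 171 and 166 FPKM in MII and at 149, 145 and 139.6 FPKM in GV. MII library 1 was barely above the highest GV library, and the rise of 0.16 (SE 0.057, limma adjusted p = 0.0382) did not pass without GV library 2 or 3, without MII library 2 or 3, or under 5 further alternatives (0.00693 to 0.230). The difference was 0.088 after scaling to the median and 0.079 without mitochondrial genes. NDUFA4, now placed in cytochrome c oxidase, rose by 0.65, with 15.2 ± 1.49 FPKM in MII and 9.31 ± 0.512 FPKM in GV (SD, n = 3 each).

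Levels of the subunit genes, compared per length, covered a wide range in both stages. The highest means in MII were NDUFB9 with 163 FPKM, NDUFAB1 with 162 FPKM, NDUFA8 with 129 FPKM and NDUFB4 with 104 FPKM. In GV NDUFAB1 led with 145 FPKM, followed by NDUFA8 with 66.5 FPKM, NDUFB9 with 60.1 FPKM and NDUFB4 with 53.1 FPKM. These 4 genes made up 39.1% of the summed level of the 39 subunit genes in MII and 39.5% in GV. Of the 38 pairs of neighbours in the order of levels, 30 overlapped between libraries in MII and 30 in GV, so most neighbours cannot be ranked. Across the 38 tested genes the Spearman correlation of MII and GV levels was 0.85, as a description of libraries that share their processing, and it was 0.93 over 10935 nuclear protein-coding genes.

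As parts per 1000000 of all FPKM, the 39 subunit genes summed to 2498, 2483 and 2390 in MII and to 1437, 1527 and 1507 in GV. The stages did not overlap in this sum. The 7 complex I subunits of the mitochondrial genome are the partners of these nuclear products, and all 7 were higher in MII, with a median log2 change of 1.11. ND5, a proton-pumping subunit, was at 653, 593 and 655 FPKM in MII and at 229.9, 228 and 224 FPKM in GV. ND2, another of these pumps, was at 50.1, 42.3 and 41.9 FPKM in MII and at 19.9, 20.8 and 19.8 FPKM in GV. ND3 had the smallest rise, 0.28 (limma adjusted p = 0.0256), which did not pass without GV library 2 or without MII library 1 or 3. The call of ND3 also ended after scaling to the median (limma adjusted p = 0.0902) and without the trended prior (0.0547), with 0.00322 to 0.0902 over alternatives. ND6 lies on the other strand and overlaps the end of ND5, and ND4L overlaps ND4. Whether counting used the strand was not given in the sources used here, so their levels are uncertain. The summed level of the 7 mitochondrial genes over that of the 39 nuclear ones was 2.01, 1.74 and 1.89 in MII and 1.39, 1.26 and 1.28 in GV. ND6 made up 61.0% to 62.4% of the mitochondrial sum in MII and 55.6% to 58.2% in GV, and without it the ratio was 0.755, 0.669 and 0.739 in MII and 0.581, 0.547 and 0.568 in GV, also without overlap. All genes of the mitochondrial genome together took 3.45%, 3.01% and 3.36% of the summed FPKM in MII and 3.80%, 3.97% and 3.96% in GV, so this share was lower in MII while the complex I genes in it were higher.

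**Figure D3:**
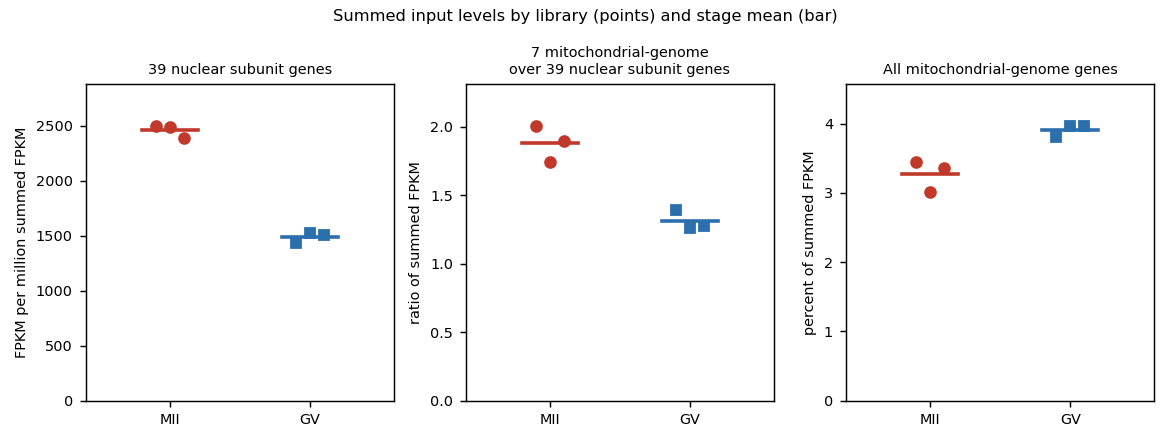
Left, summed level of the 39 nuclear subunit genes per 1000000 of all FPKM; middle, ratio of the summed level of the 7 mitochondrial-genome subunits to that of the nuclear ones; right, percent of summed FPKM from all mitochondrial-genome genes. Each point is 1 input library and each bar the stage mean, with MII left of GV, and the stages do not overlap in any panel.

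Of the 8 NDUFAF assembly factors, 4 rose, 4 did not pass and 0 fell in limma (0 also at an unadjusted p under 0.05), with a median log2 change of 0.37. Over all genes tested, 32.0% rose and 28.8% fell, with a median of 0.013. NDUFAF3, which works with NDUFAF4 on the early Q module, was at 1.10, 5.84 and 2.01 FPKM in MII and was listed at 0 in every GV library (limma adjusted p = 0.00500). It reached the filter of 1 FPKM through its MII libraries alone, so its call depends on the filter. Without MII library 2 it was not tested. When genes listed at 0 throughout a stage were left out, 3 of 7 tested factors rose. NDUFAF4, the partner of NDUFAF3, was at 15.3, 15.5 and 16.6 FPKM in MII and at 17.2, 16.6 and 16.4 FPKM in GV. The stages overlapped for NDUFAF4, and its log2 difference of -0.075 did not pass (limma adjusted p = 0.341). NDUFAF5, a modifying enzyme of NDUFS7, was at 9.17, 8.18 and 7.46 FPKM in MII and at 4.06, 5.55 and 5.24 FPKM in GV. NDUFAF8, which stabilises NDUFAF5, was at 26.6, 26.0 and 23.6 FPKM in MII and at 15.7, 10.4 and 11.1 FPKM in GV. Both of these partners were higher in every MII library, with limma adjusted p-values of 0.00377 and 0.00064, NDUFAF5 by 0.64 on the log2 scale and NDUFAF8 by a ratio of means of 2.05.

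NDUFAF1, a factor for the membrane arm, was at 3.72, 2.97 and 3.01 FPKM in MII and at 2.19, 1.65 and 1.56 FPKM in GV, and rose by 0.60 without overlap (limma adjusted p = 0.00832). NDUFAF2, a relative of NDUFA12 that acts late, was at 17.8, 13.0 and 14.7 FPKM in MII and at 9.77, 17.0 and 16.0 FPKM in GV. GV library 1 was the lowest of the 6 and MII library 1 the highest, and the log2 difference of 0.10 turned to -0.13 without GV library 1 and to -0.011 without MII library 1 (limma adjusted p = 0.677, and 0.367 to 0.971 over alternatives). NDUFAF6, an early factor, was at 5.44, 5.17 and 4.41 FPKM in MII and at 4.30, 4.60 and 4.48 FPKM in GV. NDUFAF7, a methyltransferase, was at 4.12, 6.07 and 5.01 FPKM in MII and at 5.97, 6.21 and 5.83 FPKM in GV. Neither passed, and the stages overlapped in both.

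Of 15 assembly factors listed outside the NDUFAF names, 14 were in the table and 13 were tested, of which 8 rose, 3 fell and 2 did not pass, with a median log2 change of 0.38. Over all genes tested, 32.0% rose and 28.8% fell. AIFM1, which imports cysteine-rich subunits through its partner, was at 90.2, 87.9 and 93.1 FPKM in MII and at 42.5, 39.6 and 42.7 FPKM in GV, and rose by 1.10 (limma adjusted p = 3.32e-06). The 2 related membrane-arm factors TMEM126A and TMEM126B rose by 1.59 and 0.31, the call of TMEM126B ending without mitochondrial genes (limma adjusted p = 0.0511, from 0.00846). COA1 was at 3.18, 2.91 and 2.89 FPKM and FOXRED1 at 1.56, 2.87 and 1.62 FPKM in MII, and both were listed at 0 in every GV library. Both are among the 8 that rose, but they reached the filter of 1 FPKM through MII alone, so their calls depend on the filter. Also among the 8, TMEM70 and ECSIT rose by 0.60 and 0.38 (limma adjusted p = 0.0216 and 0.0179). The call of TMEM70 ended without GV library 1 or 3, without MII library 2 or 3 and under quantile normalization (0.00376 to 0.0696). That of ECSIT ended without GV library 2 or MII library 3 (0.00936 to 0.0533). TIMMDC1, LYRM2 and NUBPL fell by 0.73, 0.57 and 0.46 (limma adjusted p = 0.0221, 0.0238 and 0.0395). The call of TIMMDC1 ended without GV library 1 or 2 or MII library 2 or 3 (0.00742 to 0.0733 over alternatives), that of LYRM2 without any 1 of the GV libraries (0.00957 to 0.0599), and that of NUBPL without GV library 1 or 2 or any 1 of the MII libraries (0.00545 to 0.124). LYRM2 also moved to -0.37 without MII library 2. Of 9 table entries for neighbours of complex I in the respiratory chain, 6 rose, among them ETFDH, which feeds electrons from fatty acid oxidation into ubiquinone, by 1.35, and COQ7 of ubiquinone synthesis by 0.61. COQ9, its partner, was at 5.01, 5.44 and 4.81 FPKM in MII and listed at 0 in GV, so it too reached the filter through MII alone. The 2 that fell both carry the symbol HIGD1A, at different loci of equal length, and the assignment of reads between them is uncertain. Each locus spans only 0.282 kb, and whether either is the functional HIGD1A gene is not known here. The call of the copy on chromosome 24 ended without GV library 3 or MII library 1 (limma adjusted p = 0.000695 to 0.0636 over alternatives).

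Most nuclear genes of the other respiratory complexes rose too. Of 42 tested nuclear genes of complexes II to V, 34 rose and 1 fell, with a median log2 change of 0.84, and the medians were 0.54 for complex II, 1.03 for complex III, 1.23 for complex IV and 0.76 for the ATP synthase. These genes were taken by symbol prefix, so complex IV here includes COX7A2L, which is also counted among the risen neighbours of complex I above. Of 77 mitochondrial ribosomal protein genes, 46 rose and 9 fell, with a median of 0.46. Over all genes tested, 32.0% rose and 28.8% fell. The group counts stand beside those of complex I, and no difference between the groups was tested.

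Genomic span was set beside the change. Across the 38 subunit genes the Spearman correlation of log2 change and genomic span was -0.37, and over 10935 nuclear protein-coding genes it was -0.26, both descriptions across genes, which are not independent replicates. The 19 subunit genes of shorter span (median 5.28 kb) all rose, with a median of 0.97, and of the 19 of longer span (median 15.1 kb) 14 rose and 2 fell, with a median of 0.51. Among all nuclear protein-coding genes at or below the subunits' median span, 46.9% were higher in MII, with a median of 0.28, and above it 27.9%, with a median of -0.037. The part of gene length in the rises was not tested further.

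m6A peaks are given with the authors' log2 enrichment of immunoprecipitate over input, 1 value per peak, so they have no replicate spread. In the MII list 25 of the 39 subunit genes had a peak, where 73.8% of all tested genes did, and in the GV list 10 had one, where 54.1% did. Both lists held 8 of the subunit genes (49.1% of all tested genes), 17 were in the MII list alone, NDUFA11 and NDUFC2 in the GV list alone, and 12 in neither. The 25 and the 17 include NDUFA4L2, which was too low to be tested and whose MII peak had an FDR of 0.0891. The GV peak of NDUFC2, of 90 bp, had an FDR of 0.203. Of the 38 tested subunit genes 24 had an MII peak. The lists were of unequal length, 22298 peaks in MII and 14222 in GV, and when both were cut to equal length by p-value, 20 subunit genes had an MII peak and 10 a GV peak. In the range from the 10th to the 90th percentile of the subunits' own levels, 20 of 30 subunit genes had an MII peak, against 86.7% of 5398 protein-coding genes, and 9 of 30 had a GV peak, against 60.6% of 7653. Subunit genes were also shorter in span, with medians of 8.19 and 8.40 kb in these ranges against 25.8 and 25.4 kb, and the part of length in the shares was not tested. Genes with no peak in either list included abundant ones, such as NDUFB4 with 104 ± 2.62 FPKM in MII and 53.1 ± 8.40 FPKM in GV, NDUFA2 with 54.5 ± 5.69 FPKM in MII and 28.0 ± 3.29 FPKM in GV, and NDUFB1 (SD, n = 3 each).

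The 28 MII peaks of subunit genes had a median log2 enrichment of 1.81, against 1.67 over the MII list, and 25 of them were at an FDR under 0.05. The 13 GV peaks had a median of 2.56, against 2.62 over the GV list, and 7 were at an FDR under 0.05. By the authors' annotation 9 of the 28 MII peaks, or 32.1%, lay at the 5′UTR or start codon, against 16.8% over the list, and 14.3% at the stop codon or 3′UTR, against 20.6%. In GV 3 of the 13 peaks, or 23.1%, lay on the start side, against 10.2% over the list. On the stop side lay 2, or 15.4%, against 23.3%. Of these GV peaks, that of NDUFB11 on the start side had an FDR of 0.0631. That of NDUFS4 on the stop side had 0.0741. Several MII peaks were short and began at the gene start. NDUFA8 had one of 178 bp at the start codon (chromosome 11, 93046685 to 93046862, minus strand), with an enrichment above that of 66.1% of the MII list. NDUFB6 had one of 350 bp (chromosome 8, 11504625 to 11504974, plus strand) with a log2 enrichment of 2.12, and NDUFB11 one of 327 bp in the 5′UTR (X chromosome, 85531633 to 85531959, minus strand) with 2.47. The highest enrichment of a subunit gene in MII was 2.96, in a 59 bp peak of the NDUFC1 5′UTR, and the lowest was 0.46 in NDUFA9. Other peaks span introns and nearly a whole gene, such as that of NDUFA6, which covers 97.7% of its span in MII and 96.6% in GV. All coordinates are as in the authors' files, and the build behind them was not given in the sources used here.

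**Figure D4:**
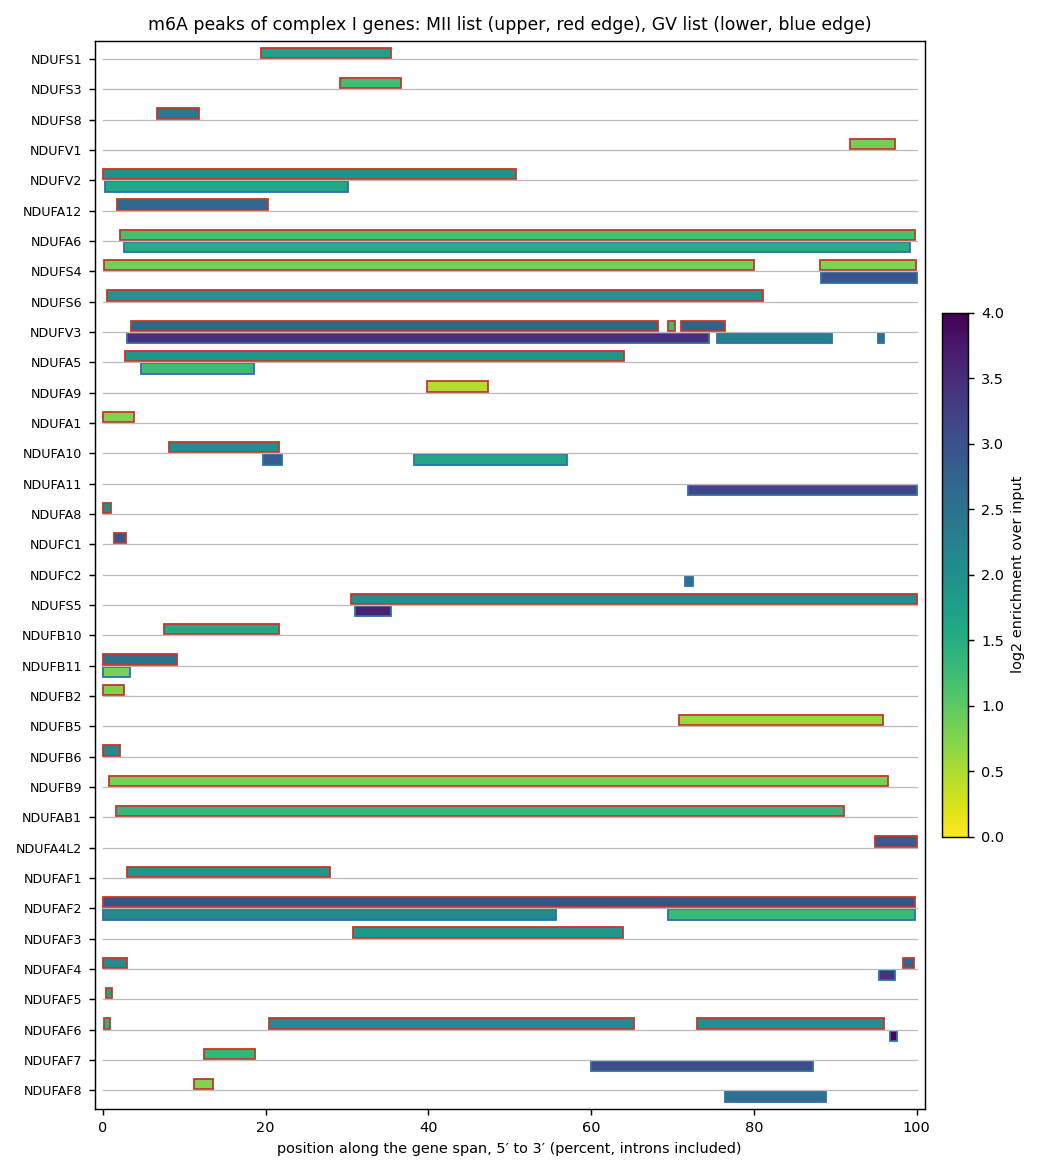
m6A peaks of the 35 complex I genes that have any, drawn along each gene from the 5′ to the 3′ end in percent of its span with introns included. Bars above a line (red edge) are from the MII list and bars below it (blue edge) from the GV list, and the fill gives the log2 enrichment over input, with MII bars at the gene start in genes such as NDUFA8 and NDUFB6.

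Peaks of both stages overlapped in 8 subunit genes, and in 4 when the overlap had to reach 50% of each span. The enrichment was higher in MII in NDUFB11, with 2.47 in MII and 0.82 in GV, in NDUFA5, with 1.90 in MII and 1.25 in GV, and in NDUFV2, with 1.97 in MII and 1.61 in GV. It was lower in MII in NDUFS5, with 1.96 in MII and 3.63 in GV, in NDUFS4, with 0.77 in MII and 2.94 in GV, and in NDUFA10, with 2.02 in MII and 2.82 in GV. The GV peaks of NDUFB11, NDUFS4 and NDUFA10 in these pairs did not reach an FDR under 0.05, with 0.0631, 0.0741 and 0.105. NDUFA6 had 1.18 in MII and 1.51 in GV. NDUFV3 had the most peaks, 3 in each list, and its long first peak had 2.73 in MII and 3.45 in GV.

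The authors' deposited table of differential peaks held 13 of the 39 subunit genes at an FDR under 0.05, where 40.8% of all tested genes had such a peak. The authors' own label of significance was given to 11 of these 13, and not to NDUFA5 and NDUFB9. In 12 of the 39, or 30.8%, the authors' deposited table gives a higher value in MII, the same share as over all tested genes (30.8%). In 1, NDUFV3, it gives a lower one (16.2% of all tested genes). Counted by peaks and not by genes, 67.0% of all entries of that table at that FDR are positive. The largest value for a subunit gene in the authors' deposited table was that of NDUFS6, with a log2 change of 4.80 (FDR 1.12e-08), on chromosome 20 (70840129 to 70844354, minus strand), followed by NDUFA8 with 3.80 and by NDUFA10 and NDUFA12 with 3.32 each. NDUFS6, NDUFA8 and NDUFA12 have no peak in the GV list. Core subunits in the authors' deposited table were NDUFS1 with 2.44 and NDUFV2 with 1.26. NDUFS1 is the member with a lower input level and a higher m6A peak in MII, on chromosome 2 (94481920 to 94483508, minus strand). Besides NDUFA8 and NDUFA10, membrane-arm members in the authors' deposited table were NDUFB6 with 2.21, NDUFB11 with 1.79, NDUFS5 with 1.10 and NDUFB9 with 0.92, beside NDUFAB1 with 2.14 and NDUFA5 of the Q module with 0.73.

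NDUFV3 had 3 differential peaks in the authors' deposited table, with log2 changes of -0.98, -1.24 and -0.49, all lower in MII, while its input level rose by 0.54. Only the peak with -1.24 carries the authors' label of significance. Of the 13 genes, 11 rose in input, 1 fell and 1 did not pass, and 6 have a peak in the GV list. For 2 of them the authors' deposited table runs opposite to the enrichments of the peak lists: NDUFS5 is given as 1.10 and NDUFA10 as 3.32 higher in MII, although their enrichments over input were lower in MII, that of NDUFA10 beside the GV peak with an FDR of 0.105. Over the series, 15.8% of 4255 differential peaks that overlap both lists are opposite in this way. NDUFS4 and NDUFA6 have no differential peak in the authors' deposited table.

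**Figure D5:**
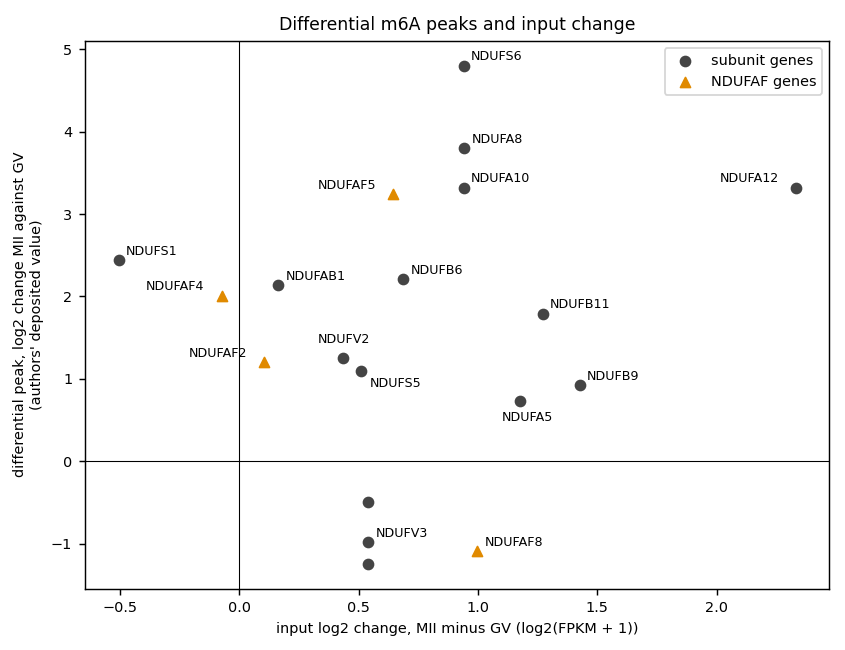
Each point is a differential m6A peak of a complex I gene, with the input log2 change of the gene (MII minus GV, log2(FPKM + 1)) on the horizontal axis and the log2 change in the authors' deposited table on the vertical axis. Most peaks are positive on both axes, NDUFS1 is lower in input with a higher peak, and the 3 peaks of NDUFV3 and that of NDUFAF8 are lower in MII in genes whose input rose.

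Among assembly factors all 8 genes had an MII peak (73.8% of all tested genes) and 5 had a GV peak (54.1%). At an FDR under 0.05, 6 had an MII peak and 4 a GV peak. NDUFAF2 had peaks over its whole gene in MII, with an enrichment of 3.01, and 2 in GV with 2.13 and 1.30. The authors' deposited table gives NDUFAF5, NDUFAF4 and NDUFAF2 as higher in MII, by 3.24, 2.01 and 1.20, and NDUFAF8 as lower, by -1.09. In NDUFAF4 the differential peak lay at the start codon (chromosome 9, 52882686 to 52882949, plus strand), and a second MII peak, with 2.73 at an FDR of 0.274, lay in the 3′UTR (52891301 to 52891418). The GV peak of NDUFAF4, with 3.41, lay at the stop codon (52891038 to 52891213). NDUFAF8 had an MII peak of 0.77 at the start codon, at an FDR of 0.0851, and a GV peak of 2.52 in the 3′UTR, where its differential peak lay too (chromosome 19, 51480962 to 51481111, minus strand). Subunit genes with an MII peak had a median input log2 change of 0.66 (n = 24) and those without 0.81 (n = 14), and those with a GV peak 0.52 (n = 10) and those without 0.88 (n = 28). These medians are descriptions over genes, with no test.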

How the data were processed

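Poly(A) RNA was selected, fragmented and captured with an m6A antibody, and libraries kept the strand, per the labels' protocols. Per the submitters' processing notes the tools were HOMER 4.10, edgeR 4.1, StringTie 2.1.2, HISAT2 2.0.4 and fastp 0.19.4, whose roles are unnamed. The peak caller, genome build and annotation were not given in the sources used here. For each gene and input library the authors deposited FPKM. Peak enrichments and differential changes are log2 values, with p-values and FDR, as deposited by the authors in 1 list per stage and 1 differential table. The differential table lists only p-values under 0.05. Peak starts in the files count from 0 and are printed counting from 1.

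Genes whose mean over the 6 input libraries reached 1 FPKM were tested with limma 3.58.1 in R 4.3.3 on log2(FPKM + 1) with a trended prior, 2-sided and adjusted by Benjamini-Hochberg over all 11739 genes at 0.05. On this scale the change of low genes is understated. The fit was tested on simulated data. Tables and figures were made with Python 3.11.15, pandas 2.3.3, SciPy 1.17.1 and matplotlib 3.10.9. Peaks were joined by gene identifier, and overlap needed 1 bp on the same strand. Between 46.2% and 56.7% of low values were whole multiples (within 0.05) at the best of 60001 steps, so whole reads were not recovered, no count test was run and depth is unknown. Values of the immunoprecipitated libraries were not analysed here, and the values of 1 counted gene are not reported here or drawn in the figures.

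The genes and lists were chosen with earlier results of these data known. Library values are printed for the 10 called members with the largest rise, those that fell, those listed at 0 in a stage, core subunits, assembly factors and members with a differential peak. Values of ND5, ND2, AIFM1, COA1, FOXRED1, COQ9, NDUFC2 and NDUFA4L2 were chosen after they were seen. The alternatives changed the scaling, filter, pseudocount or variance model, left out each library, took the replicate number as a block, or changed peak thresholds and overlaps.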

Additional observations from a re-analysis of the deposited data

How the results depend on the processing

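The number of subunit genes higher in MII was 33 and stayed between 30 and 33 in every alternative run, libraries left out included. Their median log2 change of 0.68 was 0.73 with a pseudocount of 0.1 FPKM, 0.61 after median scaling, 0.64 after quantile normalization, 0.60 without mitochondrial genes, and 0.69 to 0.74 with a library left out. The median of all genes moved by less than 0.1 in each scaling, and 44.8% to 58.6% of all calls were higher in MII, against 52.7%. Subunit genes that fell were 2, with 3 under quantile normalization, where NDUFC2 passed, and 1 to 2 with a library left out. Assembly factors that rose were 4, but 2 of 5 tested with a filter at 5 FPKM, since fewer genes were tested, and 3 to 4 with a library left out. Over 46 members, calls were lost in some alternative for 5 genes and gained for 2. Genes that fell below the filter of an alternative, such as NDUFAF3 without MII library 2, are not counted as lost. NDUFAF2 had no call in any alternative, but its difference changed sign. The log2 difference of NDUFAF2 was -0.13 to 0.24 with a library left out and below 0 without GV library 1 or MII library 1 (-0.011). Outside the members ACAD9, with no call, turned to -0.031 under quantile normalization. The cause was not tested.

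Subunit genes with an MII peak were 14 and those with a GV peak 5 when only peaks at or above the median enrichment of their list counted, and 6 had a GV peak at an FDR under 0.05. Overlapping peaks remained in 4 genes at a reciprocal overlap of 50%. The correlation with span, added after seeing the data, was -0.43 to -0.34 with a library left out. The ratio of mitochondrial to nuclear complex I levels without ND6 was added after seeing the data too. The planned correlation with protein length was not run, because no protein table was used here.

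Pairing by replicate number was looked for in the deviations of each gene from its stage mean. These deviations had correlations of -0.055, -0.060 and 0.013 between same-numbered MII and GV libraries. Between differently numbered ones they were -0.0105 to 0.0649. No pairing was seen in this, but with 3 libraries a stage it cannot settle whether the samples were paired. With the replicate block 32 subunit genes were higher and 1 lower in MII, and 4 assembly factors were higher. Under this block NDUFV2 passed (limma adjusted p = 0.0394), and NDUFS7 (0.0674) and NDUFAB1 (0.0649) did not. The deposited peak lists give 1 value per peak, so differences between the lists have no error, and with 3 libraries a stage small changes such as those of NDUFAB1 and NDUFS7 are at the limit of what the spread allows.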
